A study of Mus musculus with 6 samples.

Results

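The genes described here are 49 genes of mitosis, the spindle and the kinetochore, taken from a fixed list of names, out of 55414 gene identifiers in the count table. The list was chosen with earlier results of these data known, so its shares set beside those of all genes are descriptions. All 49 were found in the table, and all 49 passed the filter on low counts. The libraries are RNA-seq of C2C12, a wild-type mouse myoblast line, in which lipofectamine 3000 had carried in either a negative-control siRNA (siControl 1 to 3) or an siRNA against Usf2 (siUsf2 1 to 3). USF2 is a transcription factor of the basic helix-loop-helix zipper family whose target is the E-box, and the study asked which genes change when it is knocked down. The labels give neither the time after transfection nor whether replicates were separate cultures, so p-values reflect only the scatter among these samples and may capture technical variation alone.

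Cells enter mitosis when the kinase CDK1, bound to cyclins A and B, is switched on. Chromosomes condense, microtubules attach to them at kinetochores, and the spindle checkpoint holds back the anaphase-promoting complex until every chromosome is attached. Motor proteins of the kinesin family build the spindle and move chromosomes, and a contractile ring then divides the cell. Most of these genes are transcribed in G2 and M phase, and in muscle precursor cells they are shut down when the cells leave the cell cycle to differentiate. RNA from a whole culture cannot tell a larger share of cells in G2 and M phase apart from more RNA per cell.

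Usf2 itself was measured at 26.6, 31.8 and 23.6 CPM in siControl 1 to 3, at 17.1 CPM in siUsf2 1 and at 15.4 CPM in siUsf2 2 (CPM, counts scaled to a common library total after TMM adjustment). In the library labelled siUsf2 3 it stood at 28.7 CPM, inside the siControl range and against its label. Reads of a paired pseudogene (below) made up 15.5% to 23.3% of the Usf2 total in the other 5 libraries and 0% there. Summed with them, Usf2 stood at 33.3, 41.5 and 28 CPM in siControl and 21.2 and 19.5 CPM in siUsf2 1 and 2. The library labelled siUsf2 3, at 28.7 CPM, was then near the lower end of the siControl range. That library also held 3414565 counts where the other 5 held 14790997 to 17715250, and 0.974% of its counts lay on pseudogenes against 14% to 15.3% elsewhere. The siUsf2 group was therefore compared with siControl without it (the 5-library comparison, 17217 genes tested) and with it (the 6-library comparison, 16662 genes tested), and its values are also shown apart. The variation between replicates that edgeR estimated, as a coefficient of variation, was 9.25% in the first and 40% in the second. All 6 myoblast markers of the fixed list were detected, summing to between 3021 and 3714 CPM in siControl and between 1874 and 2538 CPM in siUsf2. They moved apart: in the 5-library comparison, Myog and Mymk, which mark differentiation and fusion, had log2 fold changes of -1.77 (adjusted p = 6.44e-13 in edgeR) and -2.39 (adjusted p = 7.3e-17), Cdh15, Des and Myod1 also fell (-0.75, -0.35 and -0.29), and Myf5, a marker of undifferentiated myoblasts, rose (0.37, adjusted p = 0.0325). Myog stood at 942 to 1179 CPM in siControl, 282 and 332 CPM in siUsf2 1 and 2 and 488 CPM in the library labelled siUsf2 3, and with 6 libraries none of the 6 passed edgeR's test. Their part in the results was not tested. No marker of another cell type exceeded 3.55 CPM.

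The start of a gene holds the letters that the regulators of mitotic genes are known to read. The MuvB complex, with B-MYB and FOXM1, acts through a cell cycle homology region, spelled TTTGAA or TTTAAA, and NF-Y binds CCAAT, while USF factors bind the E-box CACGTG. Sequences before the start are printed for 7 members, because they show these letters in genes that the results turn on: Cdk1, Top2a and Bub1 as core mitotic genes that rose, Plk1 as a gene with the TTTAAA form, Psrc1 as the member with the largest fold change in the 5-library comparison, and Ttk and Anln as the members with an E-box match. Each line holds 150 bases before the RefSeq start (GRCm38.p6), 5′ to 3′ on the gene's own strand. Capitals mark a match on either strand (TTCAAA is the reverse complement of TTTGAA, and ATTGG of CCAAT). For Psrc1 the first of 2 listed starts is shown.
Cdk1 (chr10:69352913-69353062, minus strand): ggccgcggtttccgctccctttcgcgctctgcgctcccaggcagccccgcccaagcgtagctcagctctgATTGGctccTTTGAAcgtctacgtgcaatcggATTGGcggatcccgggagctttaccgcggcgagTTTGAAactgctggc
Plk1 (chr7:122159285-122159434, plus strand): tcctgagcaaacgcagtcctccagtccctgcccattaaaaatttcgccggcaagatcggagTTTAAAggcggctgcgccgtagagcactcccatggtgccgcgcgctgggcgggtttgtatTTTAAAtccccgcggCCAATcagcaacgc
Top2a (chr11:99024190-99024339, minus strand): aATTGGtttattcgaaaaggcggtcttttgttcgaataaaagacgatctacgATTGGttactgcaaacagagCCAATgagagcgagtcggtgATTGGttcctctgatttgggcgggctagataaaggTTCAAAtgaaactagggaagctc
Bub1 (chr2:127831860-127832009, minus strand): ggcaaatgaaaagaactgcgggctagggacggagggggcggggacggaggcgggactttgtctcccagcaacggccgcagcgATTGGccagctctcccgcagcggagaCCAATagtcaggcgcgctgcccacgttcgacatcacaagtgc
Psrc1 (chr3:108383654-108383803, plus strand): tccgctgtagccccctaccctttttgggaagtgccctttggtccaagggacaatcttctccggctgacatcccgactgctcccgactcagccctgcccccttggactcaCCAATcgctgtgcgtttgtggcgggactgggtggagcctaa
Ttk (chr9:83834539-83834688, plus strand): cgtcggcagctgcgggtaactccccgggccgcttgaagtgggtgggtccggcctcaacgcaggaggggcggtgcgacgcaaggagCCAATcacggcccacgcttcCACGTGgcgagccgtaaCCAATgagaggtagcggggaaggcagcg
Anln (chr9:22389207-22389356, minus strand): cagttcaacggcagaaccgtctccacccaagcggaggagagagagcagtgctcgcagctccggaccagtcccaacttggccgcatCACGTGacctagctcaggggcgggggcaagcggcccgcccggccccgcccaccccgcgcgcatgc

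Of the 49 members, 41 had an entry in the RefSeq promoter table, and 8 did not (Ccna2, Aurkb, Bora, Dlgap5, Cdc25c, Kif20a, Incenp and Tpx2). Between 250 bases before and 50 bases after the start, TTTGAA was found in 31 of 41 members (75.6%) and in 20.2% of the 27025 genes of the table. CCAAT was found in 32 of 41 (78%) and in 41.1% of all genes. TTTAAA was found in 11 of 41 (26.8%) and in 14.9% of all genes. The USF E-box was found in 2 of 41 members (4.88%), against 8.09% of all genes. Both strands were searched, each motif on its own, so matches may overlap. The TTTGAA matches of Ttk, Anln and Plk1 lie in the window but outside the printed bases. A match describes letters in this window and shows no binding.

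**Figure D1:**
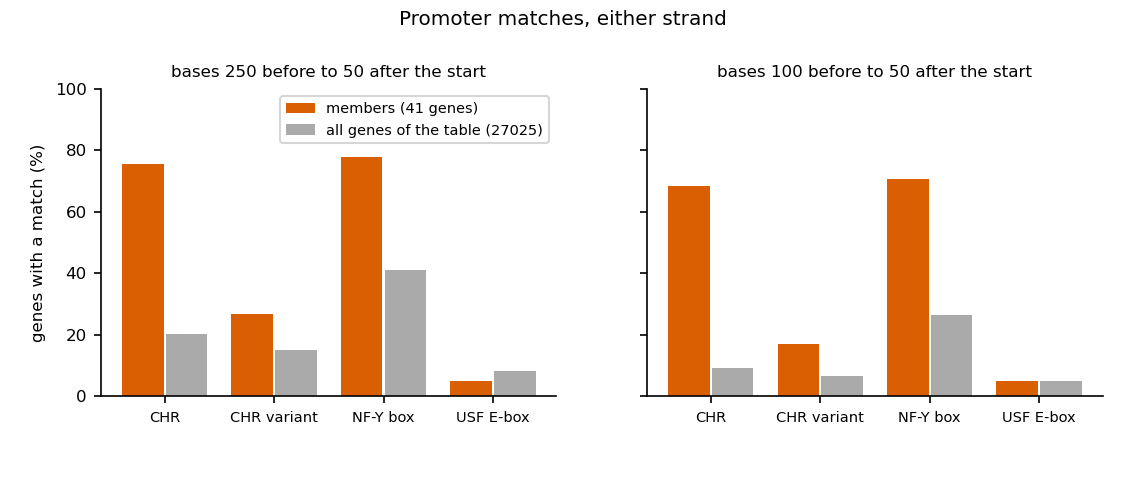
Share of genes (percent, vertical axis) whose promoter holds each motif, in 41 members and in all 27025 genes of the RefSeq promoter table, for windows reaching 250 or 100 bases before the start and 50 after it. CHR is the first spelling of the cell cycle homology region given above and CHR variant the second. TTTGAA stands at 75.6% of members against 20.2% of all genes in the longer window, and the E-box CACGTG at 4.88% against 8.09%.

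In the 5-library comparison 24 of the 49 members rose in siUsf2 1 and 2, 0 fell and 25 did not pass the test (edgeR quasi-likelihood test, two-sided, Benjamini-Hochberg adjusted p below 0.05 over all genes tested). Over all genes the same rule called 4.97% higher and 6.4% lower. The folds were small: the 24 members that rose did so between 1.28-fold and 2.44-fold, and only Psrc1 passed 2-fold. The median log2 fold change of the 49 members was 0.35 (1.28-fold), beside -0.01 over all genes tested. The fold change was above 0 in 48 of 49 members, against 48.8% of all genes, and Cdc20 alone was at -0.02. In 40 of 49 members both siUsf2 1 and siUsf2 2 stood above every siControl library, as did 19.1% of all genes.

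The count of members that rose depended on single libraries. It was 16 without siControl 1 (beside 2.76% of all genes), 18 without siControl 2 (2.86%), 30 without siControl 3 (9.43%), 17 without siUsf2 1 (1.95%) and 12 without siUsf2 2 (2.63%). Of the 24 members, 10 passed under all 12 other settings: Bub1, Mad2l1, Cenpe, Anln, Hmmr, Psrc1, Aspm, Ckap2, Dlgap5 and Top2a. Of the 25 that did not pass, 12 had an unadjusted p below 0.05, which makes 36 of 49 members higher at that level, beside 11.3% of all genes. The 95% interval of the fold change reached 1.5-fold in 7 of the 25 and 2-fold in 0 of them, so a doubling lay outside each interval, while smaller rises did not.

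**Figure D2:**
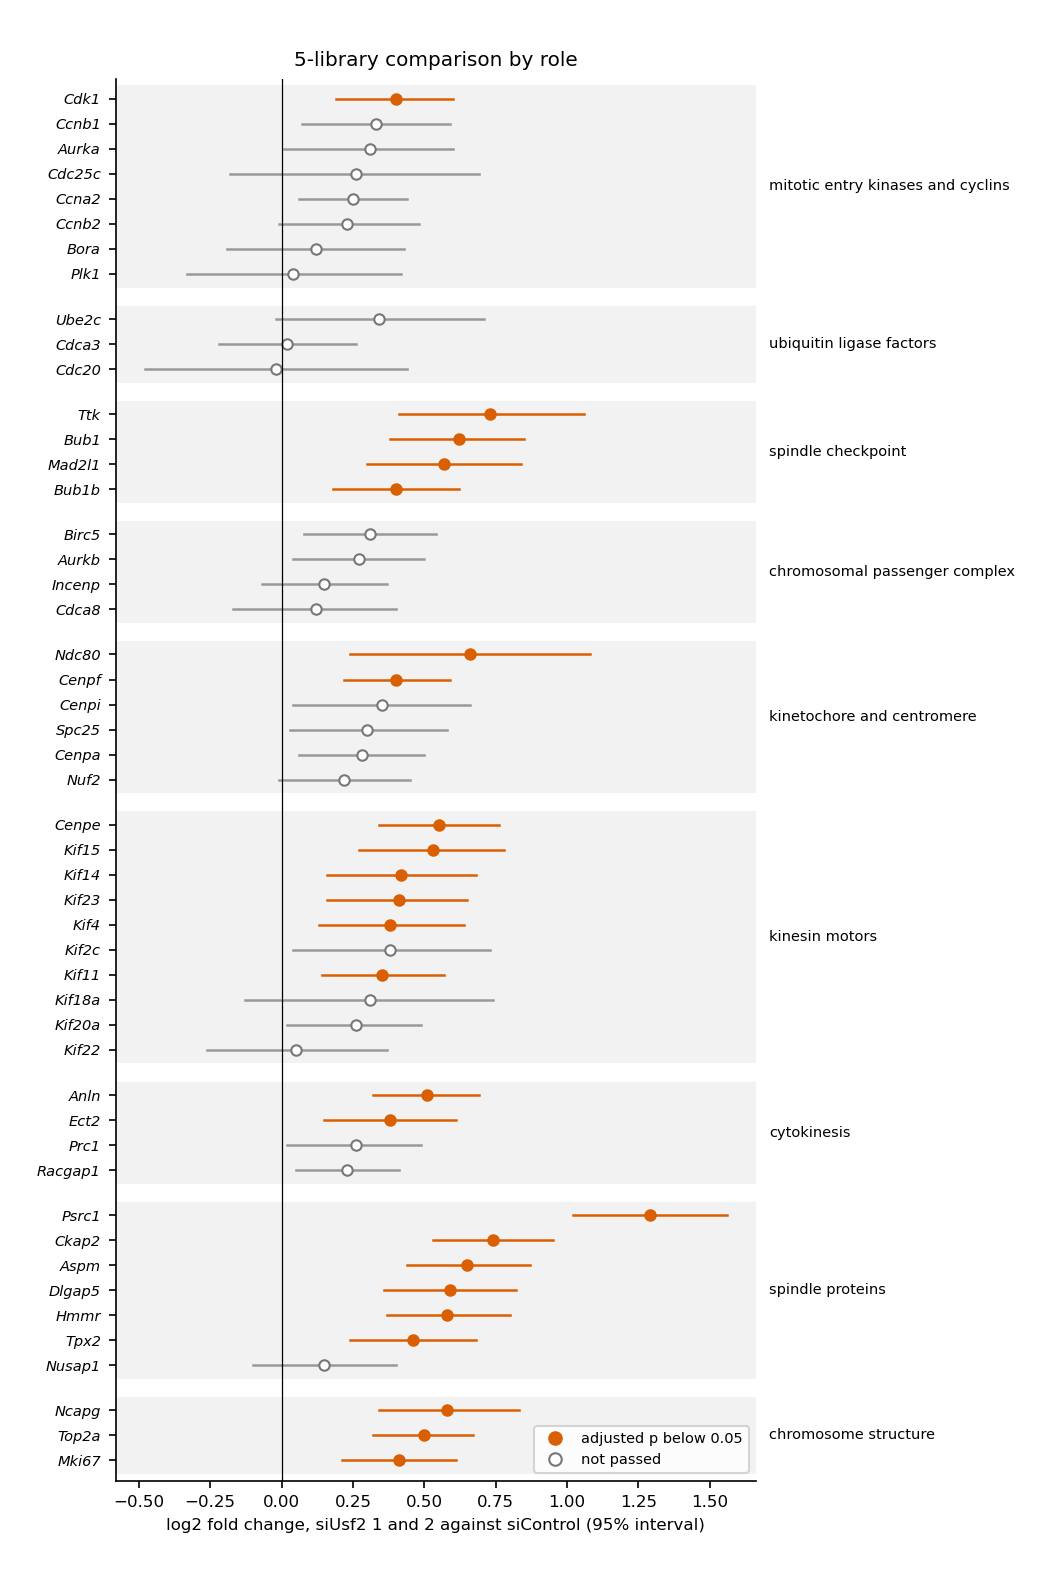
Log2 fold change of siUsf2 1 and 2 against siControl 1 to 3 (horizontal axis) for the 49 members, grouped by role, with 95% intervals as lines, and filled points for an adjusted p below 0.05. All 4 checkpoint genes and 6 of 7 spindle proteins are filled, and 0 of the 4 chromosomal passenger genes and 0 of the 3 ubiquitin ligase factors.

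By role, the members that rose were 4 of 4 spindle checkpoint genes (median log2 fold change 0.60), 6 of 7 spindle proteins (0.59), 3 of 3 genes of chromosome structure (0.50), 6 of 10 kinesin motors (0.38), 2 of 6 kinetochore and centromere genes (0.33), 2 of 4 cytokinesis genes (0.32), 1 of 8 entry kinases and cyclins (0.25), 0 of 4 chromosomal passenger genes (0.21) and 0 of 3 ubiquitin ligase factors (0.02). Differences between roles were not tested, because each role holds few genes that share the same libraries.

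Among the genes of mitotic entry, Cdk1, the kinase that drives it, was at 51.7, 61.7 and 59.3 CPM in siControl 1 to 3, at 71.7 and 78.6 CPM in siUsf2 1 and 2, and at 88.6 CPM in the library labelled siUsf2 3. All 3 siUsf2 libraries lay above all 3 siControl libraries. Cdk1 rose by a log2 fold change of 0.40 (SE 0.10, adjusted p = 0.00772, edgeR, 5 libraries), but missed the threshold without siControl 1 (adjusted p = 0.0799) or without siUsf2 2 (adjusted p = 0.164).

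Ccna2, which encodes cyclin A2, was at 67.4, 71.7 and 73.9 CPM in siControl, 81.1 and 86.2 CPM in siUsf2 1 and 2 and 67.5 CPM in the library labelled siUsf2 3, which thus lay with siControl. Its log2 fold change in the 5-library comparison was 0.25 (SE 0.09, adjusted p = 0.0796 in edgeR, and 0.0158 without siControl 3). Ccnb1, which encodes cyclin B1, the partner of CDK1 at mitotic entry, was at 20.6, 22.7 and 25.8 CPM in siControl, 29.2 and 28.2 CPM in siUsf2 1 and 2 and 77.9 CPM in the library labelled siUsf2 3. Its log2 fold change over 5 libraries was 0.33 (SE 0.13, adjusted p = 0.0929 in edgeR, and 0.0111 without siControl 3), and its single high library is taken up with the pseudogene counts below. The other 5 entry genes did not pass the test: Aurka (log2 fold change 0.31) and Plk1 (0.04), which encode mitotic kinases, Bora (0.12), whose product helps Aurora A activate PLK1, Cdc25c (0.26), a phosphatase that activates CDK1, and Ccnb2 (0.23), another B-type cyclin.

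The 3 factors of protein ubiquitylation showed no change that passed the test. Cdc20, the activator of the anaphase-promoting complex, was at 9.42, 11.2 and 5.97 CPM in siControl and 7.78 and 9.5 CPM in siUsf2 1 and 2, so the groups overlapped. Its log2 fold change was -0.02 (SE 0.22, adjusted p = 0.971 in edgeR, 95% interval -0.48 to 0.44). Ube2c, the ubiquitin-conjugating enzyme of the same complex, was at 9.15, 8.92 and 8.52 CPM in siControl and 10.8 and 11.5 CPM in siUsf2 1 and 2, with a log2 fold change of 0.34 (SE 0.18, adjusted p = 0.235, edgeR). These groups did not overlap, yet the interval, -0.02 to 0.71, included 0. In the library labelled siUsf2 3, Cdc20 read 54.4 CPM and Ube2c 52.2 CPM, far above the other 5 libraries. Cdca3, which encodes a trigger of mitotic entry that acts with an SCF ubiquitin ligase, was at 28.7, 28.2 and 28.7 CPM in siControl, 29.8 and 27.5 CPM in siUsf2 1 and 2 and 33.3 CPM in the library labelled siUsf2 3. Its log2 fold change was 0.02 (SE 0.12, adjusted p = 0.946 in edgeR), within an interval of -0.22 to 0.26.

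All 4 genes of the spindle checkpoint rose in the 5-library comparison. Bub1, a checkpoint kinase of the kinetochore, was at 25.9, 24.6 and 28.8 CPM in siControl, 40.5 and 40 CPM in siUsf2 1 and 2 and 35.5 CPM in the library labelled siUsf2 3. Ttk, which encodes the kinase MPS1 that starts the checkpoint signal, was at 11.4, 13.8 and 17 CPM in siControl, 21.1 and 25.6 CPM in siUsf2 1 and 2 and 23.8 CPM in the library labelled siUsf2 3. Mad2l1, whose product MAD2 binds and holds back CDC20, was at 20.4, 20.4 and 16.5 CPM in siControl, 27.7 and 28.4 CPM in siUsf2 1 and 2 and 33.9 CPM in the library labelled siUsf2 3. In all 3 genes every siUsf2 library, the doubtful one included, stood above every siControl library, though for Mad2l1 in the library labelled siUsf2 3 this did not hold once pseudogene reads were added (below). The log2 fold changes over 5 libraries were 0.62 for Bub1 (SE 0.11, adjusted p = 0.000369 in edgeR), 0.73 for Ttk (SE 0.16, adjusted p = 0.00228) and 0.57 for Mad2l1 (SE 0.13, adjusted p = 0.00421). Bub1b, which encodes the checkpoint protein BUBR1, rose by 0.40 (SE 0.11, adjusted p = 0.013 in edgeR). Ttk missed the threshold without siUsf2 2 (adjusted p = 0.0594), and Bub1b missed it without siControl 1 or without siUsf2 2.

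The chromosomal passenger complex joins Aurora B kinase to survivin, INCENP and borealin and corrects faulty attachments. None of its 4 genes passed the test (2 had an unadjusted p below 0.05), and each log2 fold change lay between 0.12 and 0.31. Birc5 (survivin) was at 28.6, 31.8 and 28.5 CPM in siControl, 35.7 and 37.1 CPM in siUsf2 1 and 2 and 34.2 CPM in the library labelled siUsf2 3. Aurkb was at 35.6, 35 and 29.3 CPM in siControl, 41.4 and 38.1 CPM in siUsf2 1 and 2 and 47.8 CPM in the library labelled siUsf2 3. For both genes the groups did not overlap, with log2 fold changes of 0.31 (SE 0.11, adjusted p = 0.0741 in edgeR) and 0.27 (SE 0.11, adjusted p = 0.128). Incenp was at 59.1, 54.5 and 46.1 CPM in siControl, 59.4 and 57.5 CPM in siUsf2 1 and 2 and 62.3 CPM in the library labelled siUsf2 3, so siUsf2 2 fell among the controls (log2 fold change 0.15, SE 0.11, adjusted p = 0.403 in edgeR). Cdca8 (borealin) had a log2 fold change of 0.12.

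Among kinetochore and centromere genes, Cenpf, a large protein of the outer kinetochore, was at 108, 103 and 117 CPM in siControl, 140 and 147 CPM in siUsf2 1 and 2 and 90.7 CPM in the library labelled siUsf2 3. The first 2 siUsf2 libraries stood above all controls and the library labelled siUsf2 3 below them all. Cenpf rose by a log2 fold change of 0.40 over 5 libraries (SE 0.09, adjusted p = 0.00273 in edgeR, and 0.0761 without siUsf2 2). Ndc80, which names the complex that grips microtubules, was at 5.91, 5.16 and 6.66 CPM in siControl, 9.49 and 9.1 CPM in siUsf2 1 and 2 and 18.3 CPM in the library labelled siUsf2 3, with no overlap between groups. Ndc80 rose by 0.66 (SE 0.21, adjusted p = 0.0329 in edgeR), but missed the threshold without any 1 of siControl 1, siControl 2, siUsf2 1 and siUsf2 2 (highest adjusted p = 0.198) and in DESeq2 (adjusted p = 0.0521).

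Cenpa, the histone H3 variant that marks the centromere, was at 46.2, 40.9 and 39.2 CPM in siControl, 53.9 and 47.1 CPM in siUsf2 1 and 2 and 62.6 CPM in the library labelled siUsf2 3. All siUsf2 libraries were higher than all controls, with a log2 fold change over 5 libraries of 0.28 (SE 0.11, adjusted p = 0.0941 in edgeR). The partners of NDC80 in its complex, Nuf2 (log2 fold change 0.22) and Spc25 (0.30), and the inner kinetochore gene Cenpi (0.35) did not pass the test either. The 4 genes that did not pass also had siUsf2 1 and 2 above every control.

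Of the 10 kinesin motors 6 rose. Cenpe, the motor that carries chromosomes to the metaphase plate, was at 42.9, 41.1 and 48.9 CPM in siControl, 61.5 and 66.9 CPM in siUsf2 1 and 2 and 54.7 CPM in the library labelled siUsf2 3. Kif15, which helps keep the spindle poles apart, was at 19.7, 20.8 and 21.3 CPM in siControl, 30.2 and 28.8 CPM in siUsf2 1 and 2 and 19.7 CPM in the library labelled siUsf2 3. Kif23, a motor of the central spindle needed for cytokinesis, was at 23.9, 24 and 25.1 CPM in siControl, 29.9 and 34 CPM in siUsf2 1 and 2 and 33.6 CPM in the library labelled siUsf2 3. For Cenpe and Kif23 all siUsf2 libraries were above all controls on the genes' own counts, whereas for Kif15 the library labelled siUsf2 3 stood just under the lowest control. The log2 fold changes over 5 libraries were 0.55 for Cenpe (SE 0.10, adjusted p = 0.000469 in edgeR), 0.53 for Kif15 (SE 0.12, adjusted p = 0.00473) and 0.41 for Kif23 (SE 0.12, adjusted p = 0.0254).

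Kif11 (0.35), which slides antiparallel microtubules to separate the poles, Kif4 (0.38), a chromokinesin, and Kif14 (0.42), a cytokinesis motor, also rose on the log2 scale. The calls of Kif11, Kif14, Kif23 and Kif4 were each lost without siControl 1, siControl 2, siUsf2 1 or siUsf2 2, and that of Kif15 without siUsf2 1 (adjusted p = 0.0788, edgeR). Kif4 was also lost in DESeq2 and with no filter on low counts, and so passed under 6 of 12 other settings. The microtubule depolymerase Kif2c had a log2 fold change of 0.38, Kif18a, which dampens chromosome movements, 0.31, the cytokinesis motor Kif20a 0.26 and the chromokinesin Kif22 0.05, and none of these 4 passed.

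The spindle proteins held the member with the largest fold change of the 5-library comparison. Psrc1, which encodes a microtubule-binding protein of the spindle, was at 15.5, 15.7 and 12.6 CPM in siControl (14.6 ± 1.72, SD, n = 3), 35.3 and 35.2 CPM in siUsf2 1 and 2 (35.3 ± 0.0342, SD, n = 2) and 35.3 CPM in the library labelled siUsf2 3. All siUsf2 libraries lay at the same level, far above the controls. Psrc1 rose by a log2 fold change of 1.29 (SE 0.13, adjusted p = 2.54e-08 in edgeR), 2.44-fold.

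Ckap2, a microtubule-associated protein of the poles, was at 33.4, 35.9 and 34.6 CPM in siControl, 55.1 and 59.7 CPM in siUsf2 1 and 2 and 62.3 CPM in the library labelled siUsf2 3, again with no overlap. Aspm, which organises spindle poles, was at 49.5, 42 and 53.5 CPM in siControl, 78.9 and 72 CPM in siUsf2 1 and 2 and 49.2 CPM in the library labelled siUsf2 3, which here lay among the controls. The log2 fold changes over 5 libraries were 0.74 for Ckap2 (SE 0.10, adjusted p = 5.91e-06 in edgeR) and 0.65 for Aspm (SE 0.10, adjusted p = 5.31e-05). Dlgap5 (0.59), Hmmr (0.58) and Tpx2 (0.46), which promote microtubule assembly or cross-linking in the spindle, rose too on the log2 scale, and Nusap1 (0.15), a microtubule bundling protein, did not pass. Of the 6 spindle proteins that rose, Tpx2 missed the threshold without siUsf2 2.

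**Figure D3:**
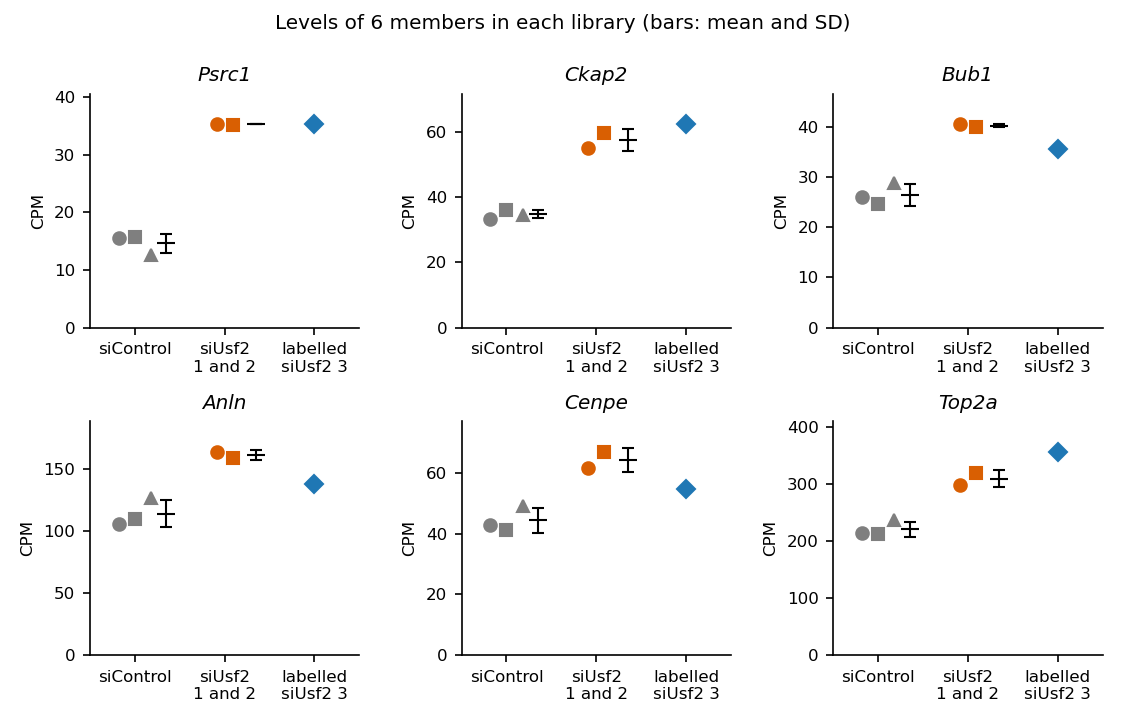
Level (CPM, vertical axis, from 0) of Psrc1, Ckap2, Bub1, Anln, Cenpe and Top2a in each of the 6 libraries (1 circle, 2 square, 3 triangle), with mean and SD bars and the library labelled siUsf2 3 in its own place as a diamond. Psrc1 lies at 35.2 to 35.3 CPM in the siUsf2 libraries against 12.6 to 15.7 CPM in siControl. In all 6 genes the siUsf2 libraries lie above the controls on the genes' own counts.

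Among cytokinesis genes, Anln, whose product anillin scaffolds the contractile ring, was at 106, 110 and 127 CPM in siControl, 164 and 159 CPM in siUsf2 1 and 2 and 138 CPM in the library labelled siUsf2 3. Ect2, the exchange factor that activates RhoA at the cell equator, was at 35.3, 36.3 and 40 CPM in siControl, 53.3 and 42.5 CPM in siUsf2 1 and 2 and 55.8 CPM in the library labelled siUsf2 3. Racgap1, a subunit with KIF23 of the centralspindlin complex, was at 99, 92.6 and 96.9 CPM in siControl, 111 and 112 CPM in siUsf2 1 and 2 and 140 CPM in the library labelled siUsf2 3. In all 3 genes the siUsf2 libraries stood above the controls. Anln rose by a log2 fold change of 0.51 over 5 libraries (SE 0.09, adjusted p = 0.000249 in edgeR).

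Ect2 rose by 0.38 (SE 0.11, adjusted p = 0.0261 in edgeR) but missed the threshold without siControl 1, siControl 2 or siUsf2 1 (adjusted p up to 0.516). Racgap1 had a log2 fold change of 0.23 (SE 0.09, adjusted p = 0.0929 in edgeR, and 0.0313 without siControl 3). Prc1, which bundles the microtubules of the midzone, had 0.26 and did not pass. With the motors Kif14, Kif20a and Kif23 added, 4 of 7 cytokinesis genes rose, and the median log2 fold change over the 7 was 0.38.

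The 3 genes of chromosome structure all rose. Top2a, the topoisomerase that untangles sister chromatids, was at 215, 212 and 237 CPM in siControl, 299 and 320 CPM in siUsf2 1 and 2 and 357 CPM in the library labelled siUsf2 3. Ncapg, a condensin subunit, was at 24, 23.5 and 27.7 CPM in siControl, 35 and 39.4 CPM in siUsf2 1 and 2 and 29.8 CPM in the library labelled siUsf2 3. Mki67, which encodes the proliferation marker Ki-67, was at 281, 249 and 318 CPM in siControl, 345 and 401 CPM in siUsf2 1 and 2 and 219 CPM in the library labelled siUsf2 3. All siUsf2 libraries exceeded all controls for Top2a and Ncapg, but for Mki67 the library labelled siUsf2 3 was the lowest of the 6. The log2 fold changes over 5 libraries were 0.50 for Top2a (SE 0.09, adjusted p = 0.000147 in edgeR), 0.58 for Ncapg (SE 0.12, adjusted p = 0.00124) and 0.41 for Mki67 (SE 0.10, adjusted p = 0.0058). Without siUsf2 2, Ncapg (adjusted p = 0.0534) and Mki67 (adjusted p = 0.174) missed the threshold.

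Per kilobase of annotated exon, the siControl mean was highest for Mki67 (28.1 CPM per kilobase), Top2a (24.6), Ccnb2 (17.6) and Ccna2 (17.4), and lowest for Kif18a (0.795), Ndc80 (0.911) and Cdc25c (1.19), all from the genes' own counts. With the reads of paired pseudogenes, described below, Cdc20 would stand at 24.5 CPM per kilobase rather than 4.75, next to Top2a, Racgap1 at 19 rather than 13.6, above Ccnb2, and Ndc80 at 1.6, above Cdc25c. Neighbours such as Ccnb2 and Ccna2 differ by less than the spread of their own libraries. The summed level of the 49 members was 1968, 1955 and 2105 CPM in siControl 1 to 3, 2597 and 2690 CPM in siUsf2 1 and 2 and 2716 CPM in the library labelled siUsf2 3. As a group the members thus took 0.192% to 0.205% of all counts in siControl and 0.26% to 0.291% in siUsf2, without overlap. Both measures use the genes' own counts. Few pseudogene reads, described below, lay in the library labelled siUsf2 3, so its place above siUsf2 1 and 2 is uncertain.

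**Figure D4:**
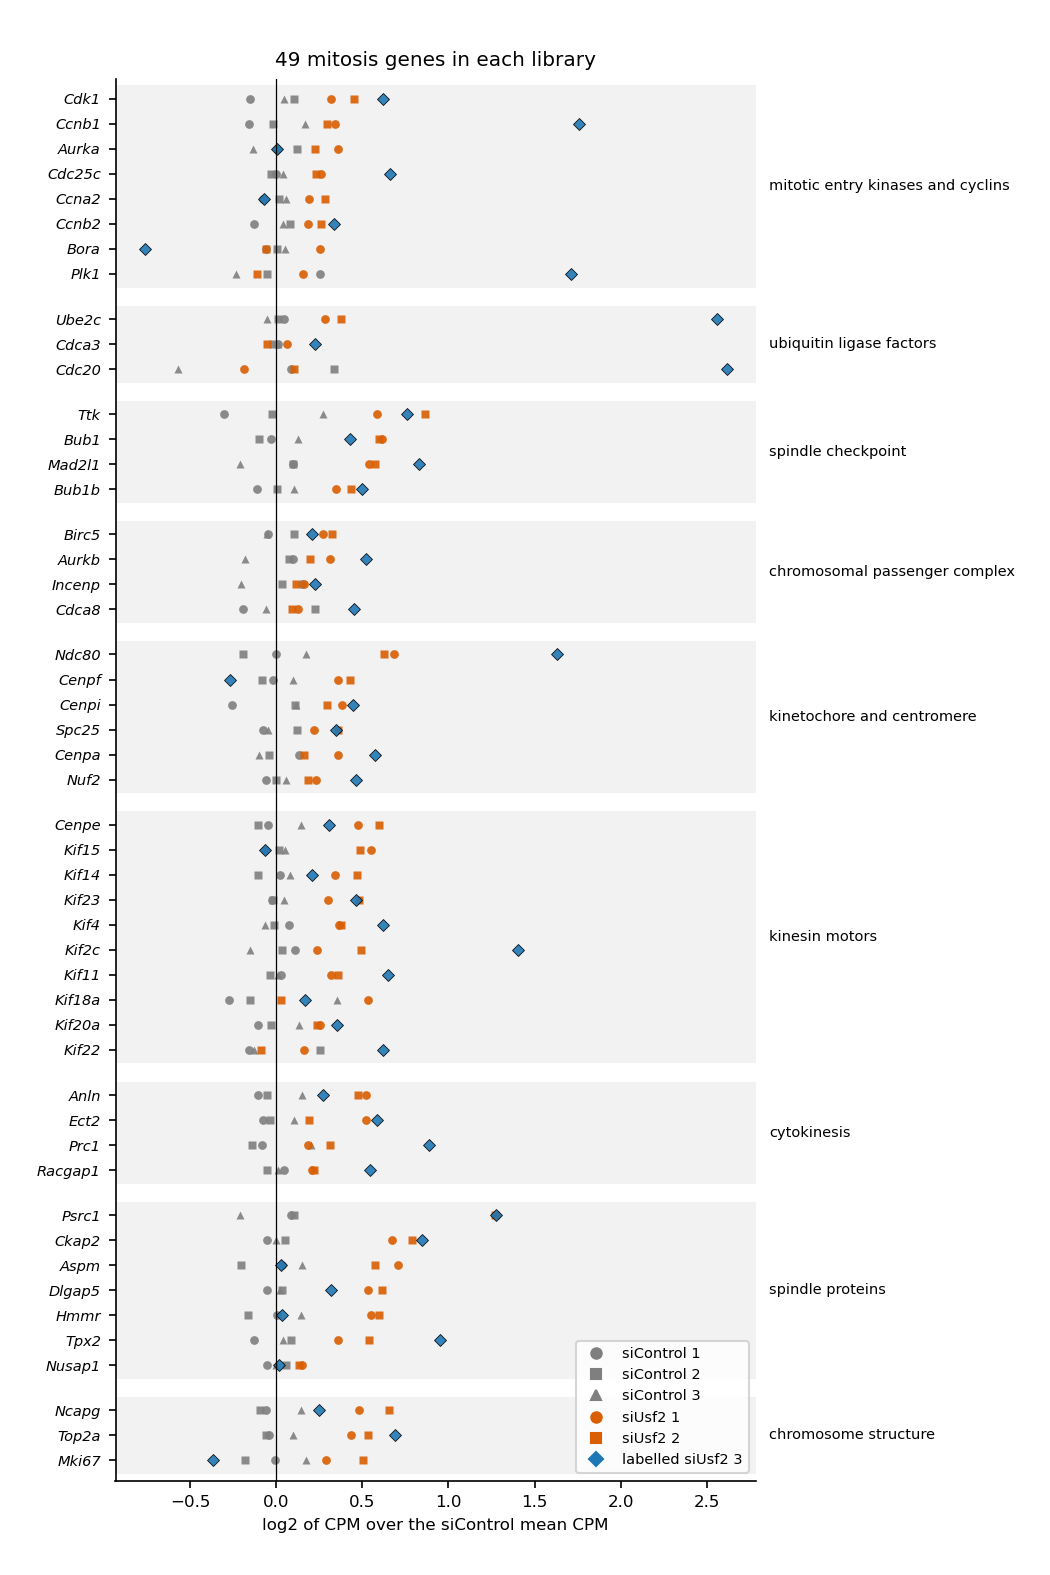
Log2 of the CPM of each of the 49 members over its siControl mean CPM (horizontal axis) in every library, with the library labelled siUsf2 3 drawn as its own symbol. Points of siUsf2 1 and 2 lie to the right of the siControl points in 40 of 49 members, and those of the library labelled siUsf2 3 in 39.

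With all 6 libraries, 0 of 49 members passed edgeR's test in either direction, and the same rule called 0% of all genes higher and 0.042% lower. At an unadjusted p below 0.05, 30 of 49 members were higher and 0 lower, beside 5.32% of all genes higher. DESeq2 called 12 members higher (Anln, Bub1, Bub1b, Cenpe, Ckap2, Dlgap5, Kif23, Kif4, Mad2l1, Psrc1, Top2a and Ttk) and 1.78% of all genes. The median log2 fold change was 0.45, beside -0.01 over all genes, and Bora alone was below 0 (-0.09). The smallest adjusted p values from edgeR were those of Psrc1 (log2 fold change 1.30, SE 0.12, adjusted p = 0.0642) and Ckap2 (0.79, SE 0.09, adjusted p = 0.0694). In 32 of 49 members all 3 siUsf2 libraries were above all 3 controls on the genes' own counts, as were 8.24% of all genes. With the reads of paired pseudogenes added (below), Mad2l1 and Cenpe left this set and Prc1 joined it.

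Shown apart, the library labelled siUsf2 3 stood above every siControl library in 39 of 49 members, against 31.6% of all genes, and below every one in 4 (Bora, Cenpf, Kif15 and Mki67), against 50% of all genes. It lay within the siControl range for Ccna2, Aurka, Kif18a, Nusap1, Hmmr and Aspm. The median member was 0.46 above its siControl mean on the log2 scale, beside -0.14 for all genes. On total counts without TMM these medians were 0.59 and -0.01. Depth limits the low members there: Kif18a rests on 32 counts, 8.75 CPM with an exact Poisson 95% interval of 5.98 to 12.3 CPM, which covers counting error only. The interval of Kif15 (15.4 to 24.8 CPM) spans the controls, whereas those of Bora (6.21 to 12.7 CPM), Cenpf (81.2 to 101 CPM) and Mki67 (205 to 235 CPM) end below the lowest control.

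Exon length moved with these differences. Across the 49 members, Spearman's rho between exon length and the log2 difference of the library labelled siUsf2 3 from siUsf2 1 and 2 was -0.34, and it was 0.24 across 16614 tested genes. For the fold change of the 5-library comparison rho was 0.43 across members and 0.17 across all genes. These are descriptions over genes that share the same libraries. The 4 members below all controls in the library labelled siUsf2 3 were among the 25 longer members (5153 to 15433 exon bases), and 0 of the 24 shorter ones were. Over all tested genes split at the same length, 47.7% of the longer and 51.1% of the shorter genes lay below all controls there, so the split of the members is not seen in the whole. The part of length in these results was not tested.

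Some members share their sequence with processed pseudogenes, copies that can take reads from the parent gene. Aligning annotated pseudogene transcripts to protein-coding transcripts paired 10 of the 49 members with pseudogenes: Ccnb1, Cdc20, Cenpe, Mad2l1, Mki67, Ndc80, Plk1, Prc1, Racgap1 and Ube2c. In the 5 deeper libraries the pseudogenes held 78.2% to 85.5% of the reads of Cdc20 and its pseudogene together, 76.8% to 79.7% for Ube2c, 65.9% to 70% for Ccnb1 and 65.2% to 74% for Plk1. In the library labelled siUsf2 3 they held 0 counts for Cdc20 and Ube2c, 1 for Ccnb1 and 2 for Plk1. Ndc80 differed: its pseudogenes kept 26 counts there (28% of the reads), and its sum, 25.4 CPM, stayed above the controls (9.11 to 11.8 CPM).

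Gene and pseudogenes summed, Cdc20 stood at 44.8, 51.4 and 41 CPM in siControl, 46.1 and 52.5 CPM in siUsf2 1 and 2 and 54.4 CPM in the library labelled siUsf2 3. The sums thus lay close together in all 6 libraries, where the gene alone read 5.97 to 54.4 CPM. Over 6 libraries the log2 fold change of Cdc20 was 1.44 from the gene's own counts and 0.19 from the sum. The sum for Ccnb1 was 68.1, 72.8 and 75.9 CPM in siControl, 85.7 and 94 CPM in siUsf2 1 and 2 and 78.2 CPM in the library labelled siUsf2 3, with no overlap. This sum rose over 5 libraries (log2 fold change 0.32, SE 0.09, adjusted p = 0.0187 in edgeR), so that 25 members passed when pseudogene counts were added, beside 5.74% of all genes. With the sums, Mad2l1 stood at 36.8, 34.5 and 35.1 CPM in siControl, 47.6 and 50.6 CPM in siUsf2 1 and 2 and 33.9 CPM in the library labelled siUsf2 3, now below the controls, and that library fell within the siControl range for Cenpe and Plk1. It was then above every control in 36 of 49 members (30.8% of all genes) and below every one in 5 (48.1%). The levels and folds of these 10 members from their own counts are therefore uncertain.

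**Figure D5:**
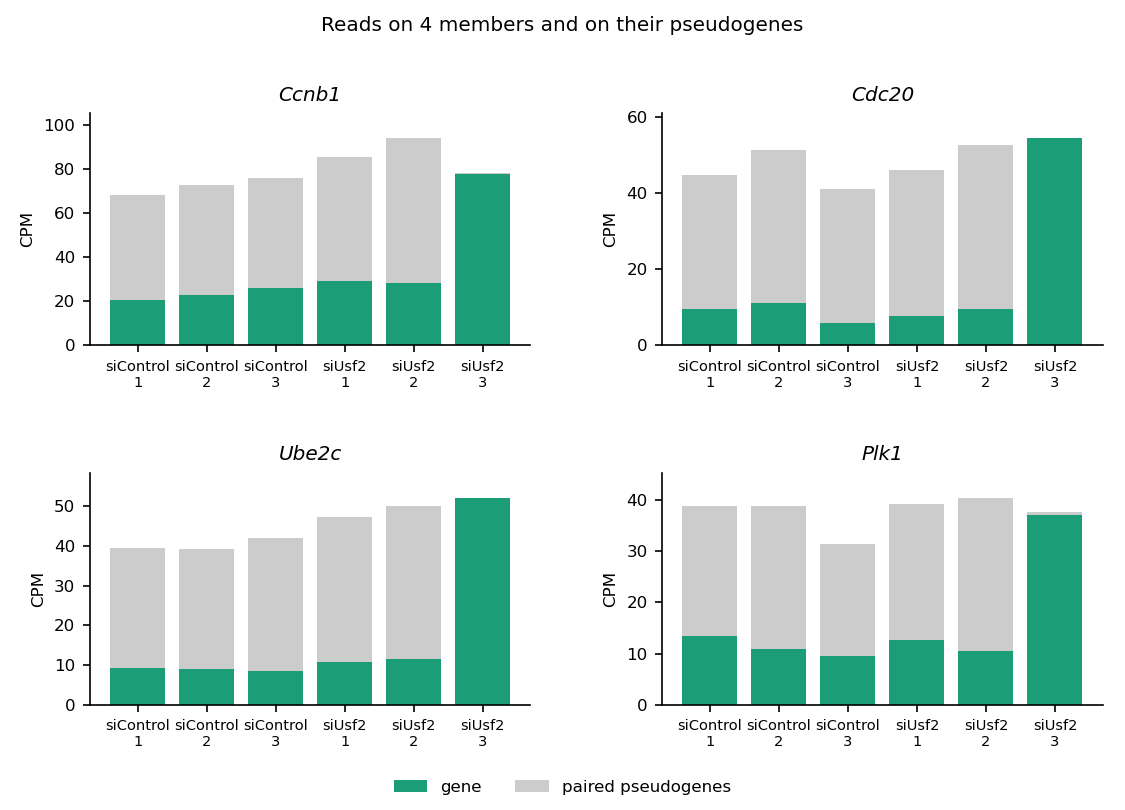
Level (CPM, vertical axis, from 0) of Ccnb1, Cdc20, Ube2c and Plk1 in each library, stacked with the level of their paired pseudogenes. For Cdc20 the pseudogene makes up 78.2% to 85.5% of the bar in the first 5 libraries and 0% in the library labelled siUsf2 3, while the whole bar stays between 41 and 54.4 CPM.

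Beyond the 49, a list of 90 other genes of mitosis, also chosen with earlier results known, was read in the same way. In the 5-library comparison 22 of the 90 rose and 0 fell, beside 4.97% and 6.4% of all genes, 38 were higher at an unadjusted p below 0.05, beside 11.3% of all genes, and the median log2 fold change was 0.24. The 15 genes of the anaphase-promoting complex, its regulators, securin and separase had 0 calls, a count that at 4.97% of all genes does not stand apart for so short a list (1 was higher at an unadjusted p below 0.05). Their median was 0.07, and 7 of them were below 0. The 4 with the smallest p were Knl1, the scaffold of the outer kinetochore, Cep55, an abscission protein, Mastl, the Greatwall kinase that protects CDK1 substrates from dephosphorylation, and Knstrn, a kinetochore and spindle adaptor. Their log2 fold changes were 0.72 (SE 0.11), 0.66 (SE 0.10), 0.82 (SE 0.13) and 0.60 (SE 0.10), with adjusted p values from edgeR of 4.55e-05, 4.8e-05, 5.37e-05 and 0.000115.

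Knl1 was at 25, 26.5 and 29.9 CPM in siControl, 45.3 and 43.1 CPM in siUsf2 1 and 2 and 25.7 CPM in the library labelled siUsf2 3, which lay with the controls. Mastl was at 19, 15.7 and 20.2 CPM in siControl, 33.7 and 30.6 CPM in siUsf2 1 and 2 and 20.8 CPM in the library labelled siUsf2 3. For Cep55 and Knstrn the library labelled siUsf2 3 (39.6 and 55.8 CPM) stood above the highest control (37.9 and 43.6 CPM). With 6 libraries 0 of the 90 passed edgeR's test, and 29 were higher at an unadjusted p below 0.05, beside 5.32% of all genes.

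Of 25 regulators of mitotic genes measured, E2f7 rose and Cdkn1a, E2f2, E2f4, Rbbp4 and Usf2 fell in the 5-library comparison; apart from Cdkn1a and Usf2, these are named after their values were seen. A single rise and 5 falls of 25 stand beside 4.97% higher and 6.4% lower over all genes, and Usf2 was the target itself. With 6 libraries the log2 fold change of Usf2 was -0.40 (adjusted p = 0.702 in edgeR), and -0.55 with pseudogene counts added (adjusted p = 0.297). Without the library labelled siUsf2 3 it was -0.74 (SE 0.14, adjusted p = 0.000643), but the Usf2 level of that library was among the reasons to set it apart, so this value is a description. Foxm1, the forkhead factor of G2 and M phase genes, was at 72.6, 67.5 and 66.6 CPM in siControl, 81.8 and 81.9 CPM in siUsf2 1 and 2 and 76 CPM in the library labelled siUsf2 3. All siUsf2 libraries were higher, with a log2 fold change of 0.26 (SE 0.09, adjusted p = 0.0651 in edgeR, and 0.0397 without siControl 3). Mybl2, which encodes B-MYB, was at 6.4, 6.69 and 5.85 CPM in siControl, 9.49 and 8.29 CPM in siUsf2 1 and 2 and 10.7 CPM in the library labelled siUsf2 3, also without overlap (log2 fold change 0.51, SE 0.20, adjusted p = 0.103 in edgeR). Summed with its paired pseudogene, Mybl2 stood at 10.1, 10.3 and 8.98 CPM in siControl and 13.7 and 12.8 CPM in siUsf2 1 and 2. The library labelled siUsf2 3, at 10.7 CPM, was then only just above the controls.

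Cdkn1a, which encodes the CDK inhibitor p21, through which p53 represses many mitotic genes, was at 725, 772 and 689 CPM in siControl, 328 and 330 CPM in siUsf2 1 and 2 and 369 CPM in the library labelled siUsf2 3. All siUsf2 libraries were far below all controls. Cdkn1a fell by 1.13 on the log2 scale over 5 libraries (SE 0.09, adjusted p = 7.6e-11 in edgeR). With 6 libraries its log2 fold change was -1.06 (adjusted p = 0.055, edgeR). E2f2 fell by 0.94 (adjusted p = 5.73e-08), E2f4 by 0.36 (adjusted p = 0.0138) and Rbbp4 by 0.27 (adjusted p = 0.0443), while E2f7 rose by 0.54 (adjusted p = 0.00113). In the library labelled siUsf2 3, however, E2f7 stood at 24.9 CPM, below every control (28.3 to 30.4 CPM), and over 6 libraries its log2 fold change was 0.34 (adjusted p = 0.661 in edgeR). The value of Rbbp4 with pseudogene counts added was -0.19 (adjusted p = 0.132).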

How the data were processed

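The authors deposited whole-number read counts per Ensembl gene, not normalized, for 6 libraries. A further deposited table was not used. Per the submitters' processing notes the build was mm10 and the tools were FastQC, Trimmomatic, HISAT2, featureCounts and DESeq2 (versions, annotation, strand and handling of multiply mapped reads: not given in the sources used here). Symbols, coordinates and exon lengths came from GENCODE M21 (52133 of 55414 identifiers found), promoters from RefSeq (GRCm38.p6). Comparisons used edgeR 4.0.16 in R 4.3.3 (filterByExpr, TMM, robust quasi-likelihood test, two-sided, Benjamini-Hochberg over all genes tested, adjusted p below 0.05). SE is the fold change over the root of the F statistic. Levels are CPM on TMM-scaled totals, and log2 differences of single libraries use a prior count of 2. DESeq2 1.42.0, RLE and upper-quartile scaling, other filters, a replicate block, added pseudogene counts (at least 90% identity, 50% coverage, 150 matching bases), a threshold of 0.01, and leaving out each library in turn, were alternatives. Whether library numbers pair the samples is not known, and no block entered the main comparisons. The members, roles and lists, and the library to leave out, were chosen with earlier results of these data known. In each role up to 3 members with the smallest p were named with all values, as were any member that fell, the members with the highest and lowest fold change, Usf2, Foxm1, Mybl2, Cdkn1a, and the 4 other mitosis genes with the smallest p. Lin54, of the regulators' list, was not analysed here. The fit was tested on simulated data.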

Additional observations from a re-analysis of the deposited data

How the results depend on the processing

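In the 5-library comparison leaving out 1 library gave 12 to 30 members that rose and a median log2 fold change of 0.34 to 0.42, and 0 members fell under any setting. The other settings gave 17 (adjusted p below 0.01, share of all genes not given here) to 27 (upper-quartile scaling, beside 6.53% of all genes) without a replicate block. With a replicate block 31 rose (beside 9.98% of all genes) and the median was 0.42, while with 6 libraries the block left 0. Whether the replicate numbers pair the samples is not known. The correlations of same-numbered deviations were -0.07, 0 and -0.07. These deviations were taken from group means that include the library labelled siUsf2 3, so they cannot decide it. Upper-quartile scaling turned the split over all genes from 855 higher and 1102 lower to 1124 and 900. Cdc20, at -0.02, turned to 0.12 with pseudogene counts added, 0.02 with upper-quartile scaling, 0.03 without siControl 1, 0.18 without siControl 2 and 0.13 without siUsf2 1 (range -0.24 to 0.18 with 1 library left out), and Cdca3 turned to -0.03 without siUsf2 1 (range -0.03 to 0.07); the cause was not tested. With 6 libraries 0 members rose, but 12 with DESeq2 (beside 1.78% of all genes) and 2 with no filter (0.0408%). With pseudogene counts added 2 rose (0.256%, median 0.39), and with 1 library left out 0 to 24 (median 0.35 to 0.49). The 24 are those without the library labelled siUsf2 3, beside 4.97% of all genes. Leaving out 1 library put Cdc20 between -0.02, without the library labelled siUsf2 3, and 1.89. The median of that library, 0.46, was 0.59 on total counts and 0.35 with pseudogene counts added. Leaving out siUsf2 1 or 2 from 5 libraries leaves a lone sample, assumed to vary like siControl.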
